A study of Mus musculus with 44 samples.

Results

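The enrichment of transcripts by m6A immunoprecipitation (IP) was examined in wild-type (WT) pBCSP, the pre-bone, cartilage and stromal progenitors of the mouse skeleton, as the ratio of IP to input for every gene. The members were chosen by label: 2 IP and 2 input libraries of WT pBCSP, 4 of the 44 libraries of the series, with IP and input of the same replicate number taken as a pair. The series profiled 8 sorted skeletal populations, among them the skeletal stem cell (SSC) and BCSP, by SLIM-seq, an m6A sequencing method for very little RNA. The labels give the mice as C57Bl6, wild type, untreated and 3 days old, and the tissue as long bone. Where the study compared WT with Mettl3-deleted mice, its WT mice carried Mettl3 fl/fl without the Col2a1-Cre transgene. Mice of either sex were used, and the number of animals behind a library is not given in the sources used here. Cells were stained for CD45, Ter119, Tie2, CD51, Thy1, 6C3, CD105 and CD200 and sorted from the metaphysis and growth plate. Total RNA was bound by an m6A antibody and then, like the input, reverse transcribed and pre-amplified, and the cDNA was cut by Tn5. No fragmentation of the RNA before the IP is described, so a count is taken here as a measure of a gene and carries no position of a modified base.

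m6A, a methyl group on the nitrogen at position 6 of adenosine, is the most abundant internal modification of mRNA. It is written by a complex built on METTL3 and METTL14 with adapters such as WTAP and RBM15, removed by FTO and ALKBH5, and bound by readers of the YTH and IGF2BP families. In skeletal progenitors it is studied because reader proteins change how long an mRNA lasts and how much it is translated. The writer acts at the motif DRACH, of which GGACT in the DNA sequence is the best known form.

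A set of 4 genes shows where this motif lies. Foxc1 (forkhead factor of skeletal and vascular progenitors), Id2 (inhibitor of basic helix-loop-helix factors) and Mgp (matrix Gla protein) were enriched by the IP, and Serpinh1 (collagen chaperone HSP47) was depleted. A selection of windows was read 5′ to 3′ on the transcript strand of the reference sequence from GRCm38, GENCODE vM21, with the GGACT in capitals and 10 bases on each side.
Foxc1 site 1, chr13:31807108-31807132 (+), 5′ UTR: ggcgcggcccGGACTcggactcggc
Foxc1 site 2, chr13:31807114-31807138 (+), 5′ UTR: gcccggactcGGACTcggcggccgg
Foxc1 site 3, chr13:31807665-31807689 (+), coding: cgctcgacccGGACTcctacaacat
Foxc1 site 4, chr13:31809319-31809343 (+), 3′ UTR: ttttattcatGGACTtgtttttaaa
Id2 coding site, chr12:25095760-25095784 (-), coding: agatcgccctGGACTcgcatcccac
Id2 3′ UTR site, chr12:25095139-25095163 (-), 3′ UTR: tggttgctcaGGACTacagaacagt
Serpinh1 site 1, chr7:99352934-99352958 (-), 5′ UTR: gtgaaagatcGGACTtggaactgtc
Serpinh1 site 2, chr7:99352882-99352906 (-), 5′ UTR: tctagtacgcGGACTgcctggtaaa
Serpinh1 site 3, chr7:99346396-99346420 (-), coding: acatctggcaGGACTgggcctgacc
Foxc1 sites 1 and 2 overlap. The motif occurred 4 times in the 5844 bases of the Foxc1 transcript, 3 times in the 958 bases of Id2, 3 times in the 2274 bases of Serpinh1 and 0 times in the 617 bases of Mgp. The depleted Serpinh1 thus holds as many GGACT as the enriched Id2, and the enriched Mgp holds none. Across 10834 protein-coding genes with at least 50 counts in each input library, 92.2% of transcripts held at least 1 GGACT, 86.0% of the tagged ones and 95.1% of the depleted ones. A short transcript has less room for GGACT. Of the 1453 tagged transcripts 400 were of 303 to 1261 bases, and of the 2157 depleted ones 22. How far length accounts for these shares was not tested. The median density per kilobase was 0.996 in tagged, 1.04 in uncalled and 1.15 in depleted transcripts. A match is a string of letters, not a modified site, and only GGACT, on the transcript strand, was searched.

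The 4 libraries held 28038160 and 35856651 counts (IP) and 30946739 and 32330623 (input). Levels in this paragraph are counts scaled to library totals (CPM), and later ones are CPM after TMM scaling. Log2 CPM of the IP libraries correlated at 0.872 and those of the inputs at 0.953, over genes, which are not independent of each other. The replicates differed by more than sampling noise, and nothing in the labels says whether they came from separate animals, so the p-values measure the spread between these libraries. Of the sort markers, Itgav (CD51) had 29.9 and 35.2 CPM in the inputs and Thy1 0.0646 and 0.124. Cd200 had 25.9 and 21.2 CPM in the pBCSP inputs against 269 and 141 in SSC and 254 and 152 in BCSP. Eng (CD105) was detected at 32.6 and 64.3 CPM, against 45.4 and 44 in SSC and 108 and 136 in BCSP. Enpep (6C3) had 5.07 and 5.41 CPM, above the 3.51 and 3.09 of SSC and the 2.61 and 2.05 of BCSP. Tek (Tie2) had 24 and 16 counts in the pBCSP inputs, 0 and 0 in SSC and 31 and 0 in BCSP. Ptprc (CD45) had 0 counts in both pBCSP inputs, and 0 and 12 in the pBCSP IP libraries. Markers of 4 other cell types were also detected: summed over 14 blood cell genes they reached 23.7 and 27.0 CPM in the inputs and 49.9 and 37.5 in the IP. The sums for 9 red cell genes were 6.24 and 2.04 CPM (input) and 25.7 and 2.59 (IP), for 11 endothelial genes 19.1 and 13.0 and then 21.2 and 13.5, and for 17 muscle genes 56.3 and 47.2 and then 101 and 63.0. The muscle sums thus exceeded the level of Itgav in the inputs. Of the muscle genes, Tnnt3 had 853 and 743 input counts, against 926 and 1139 for Itgav.

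In pBCSP most tested transcripts of ribosomal proteins, of the mitochondrial genome and of nuclear oxidative phosphorylation were enriched by the IP, and so were many long transcripts of chromatin and RNA regulators. Of protein-coding transcripts of intermediate length (1500 to under 4500 bases) with at least 50 counts in each input, 28.2% were depleted, among them Serpinh1, Col9a2 and Junb. Foxc1, Id2 and Mgp all rose. A gene was called tagged, after the study's own criterion, when its IP exceeded its input by more than 1 on the log2 scale at an unadjusted p under 0.05, and depleted at the mirror image below −1. Of 16367 genes tested by edgeR's quasi-likelihood test with the replicate pair as a block, 1829 (11.2%) were tagged and 2348 (14.3%) depleted. At a Benjamini-Hochberg adjusted p under 0.05 there were 1327 tagged (8.11%) and 1711 depleted (10.5%). With the spread taken also from SSC and BCSP libraries, 1549 genes were tagged and 2030 depleted. Fits with 1 pair left out are described in the last section. They also have fewer libraries, so their counts do not measure what each pair contributes. The median log2 ratio of all tested genes was −0.12. The scale is relative within a library, so a loss or gain that all transcripts shared would not be seen.

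The ratio was similar between the pairs where the input was well measured. Over 11737 genes with at least 50 counts in each input, the ratios of the pairs correlated at 0.660 (Pearson) and 0.746 (Spearman) across genes, and over all 16367 at 0.477 and 0.567. The 100 genes highest in pair 1, at a median of 2.40 on the log2 scale, had a median of 2.13 in pair 2, and 94 of them were above 1 there. The low end repeated less well, since the 100 genes lowest in pair 1 had a median of −5.55 there and −1.98 in pair 2. Conversely, the 100 highest of pair 2 had a median of 2.66 there and 1.91 in pair 1, and the 100 lowest −5.93 and −1.36.

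**Figure D1:**
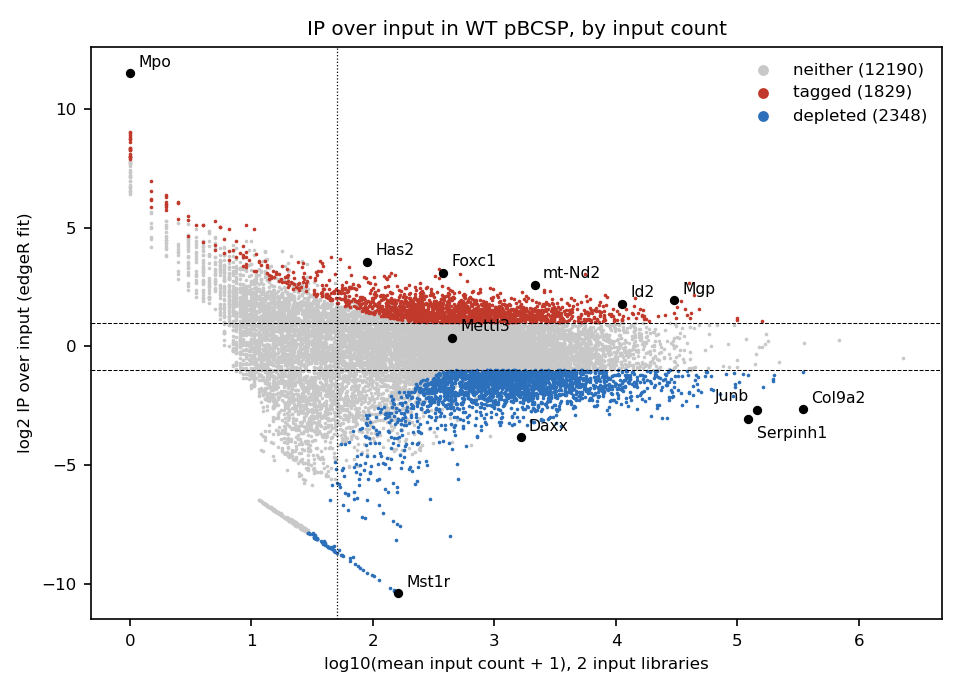
Log2 ratio of IP to input (y axis, edgeR fit) against log10 of the mean input count plus 1 (x axis), 1 point per gene tested. Red points are the 1829 tagged and blue the 2348 depleted genes, dashed lines mark 1 and −1, the dotted line marks 50 counts, and the genes with almost no input counts, such as Mpo, reach the highest values with little behind them.

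Among genes with at least 50 counts in each input, the highest ratios were those of Has2, Eid1, Foxc1 and 12 other genes. Has2 (chromosome 15, 56665627 to 56694539), the main synthase of hyaluronan, had 31.0 and 37.0 CPM in the IP libraries and 3.23 and 2.51 in the inputs, a log2 fold change of 3.57 ± 0.35 (SE, adjusted p = 0.00345, edgeR). Foxc1 (chromosome 13, 31806633 to 31812476) had 98.7 and 109 CPM in the IP and 14.7 and 9.80 in the input, a log2 fold change of 3.11 ± 0.25 (SE, adjusted p = 0.00257). In each case both IP libraries stood far above both inputs. Jund, the JUN family member of the AP-1 factor, had 132 and 142 CPM against 19.9 and 13.7, a log2 fold change of 3.05 ± 0.23. Vegfa, the angiogenic growth factor made by growth plate chondrocytes, had 91.3 and 73.8 CPM against 11.1 and 10.1 (2.95 ± 0.21). Fzd8, a Wnt receptor, had 25 and 33.3 CPM against 2.50 and 5.42 (2.96 ± 0.36).

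The other genes of the 15 most enriched ranged from 2.85 to 3.25 on the log2 scale. They were Eid1 (an inhibitor of acetyltransferase-dependent transcription), Mbd2 (a reader of methylated DNA), Hnrnpd (an RNA-binding protein of AU-rich mRNAs), Slc30a1 (a zinc exporter), Rab12, Man2a1 (a Golgi mannosidase), Rnf217, Tmtc1, Fam63b and Lars2. Eid1 had 101 and 108 CPM in the IP against 14.2 and 8.41 and, like Mgp, held no GGACT in 1691 bases. Lars2 had 896 and 2506 CPM in the IP against 197 and 166. It stood apart by the spread between its IP libraries, and it is one of 4 genes that gather reads of ribosomal RNA-like sequence, so its count is uncertain. Together these 4 genes took 0.757% and 1.34% of the IP counts and 0.154% and 0.137% of the input counts.

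Among genes with at least 1000 counts in each input, a limit set after the data were seen, the enriched end changed character. Among its 15 genes were Lars2, mt-Nd2, Pmepa1, mt-Rnr1, Lgr4, Ppp2ca, Pan3, mt-Rnr2, Tpt1, S100a11, mt-Nd4, Rps12, Mt1 and Spry2. mt-Nd2, a complex I subunit encoded by the mitochondrial genome, had 383 and 454 CPM in the IP against 59.4 and 79.0 (2.60 ± 0.13). Pmepa1, an inhibitor of TGF-beta signalling, had 434 and 429 CPM against 91.8 and 75.1 (2.38 ± 0.13). Lgr4, the R-spondin receptor that raises Wnt signalling, had 342 and 462 CPM against 73.4 and 92.0 (2.27 ± 0.12). Spry2, a feedback inhibitor of FGF receptor signalling, had 1516 and 2302 CPM against 425 and 499 (2.02 ± 0.12).

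Genes that the study works with were read next. Id2 (chromosome 12, 25093799 to 25097140) had 1213 and 1335 CPM in the IP and 366 and 363 in the input, a log2 fold change of 1.80 ± 0.10 (SE, adjusted p = 0.00209, edgeR). Mgp (chromosome 6, 136872435 to 136875823), an inhibitor of calcification, had 3584 and 3998 CPM against 1030 and 934 (1.95 ± 0.10, adjusted p = 0.00209). For both genes the IP libraries lay above the inputs without overlap. Klf4, Foxo1, Foxo3 and Chst11 (the chondroitin 4-sulfotransferase) were tagged at 1.47, 1.42, 1.39 and 1.08. Fem1b, the substrate receptor of a CUL2 ubiquitin ligase, had 62.5 and 67.9 CPM in the IP against 32.1 and 36.4 and rose by 0.93 ± 0.18 (adjusted p = 0.0211), short of the log2 threshold of 1. Mettl3 itself had 18.6 and 18.3 CPM against 12.3 and 16.7, a log2 fold change of 0.36 with an adjusted p of 0.465.

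**Figure D2:**
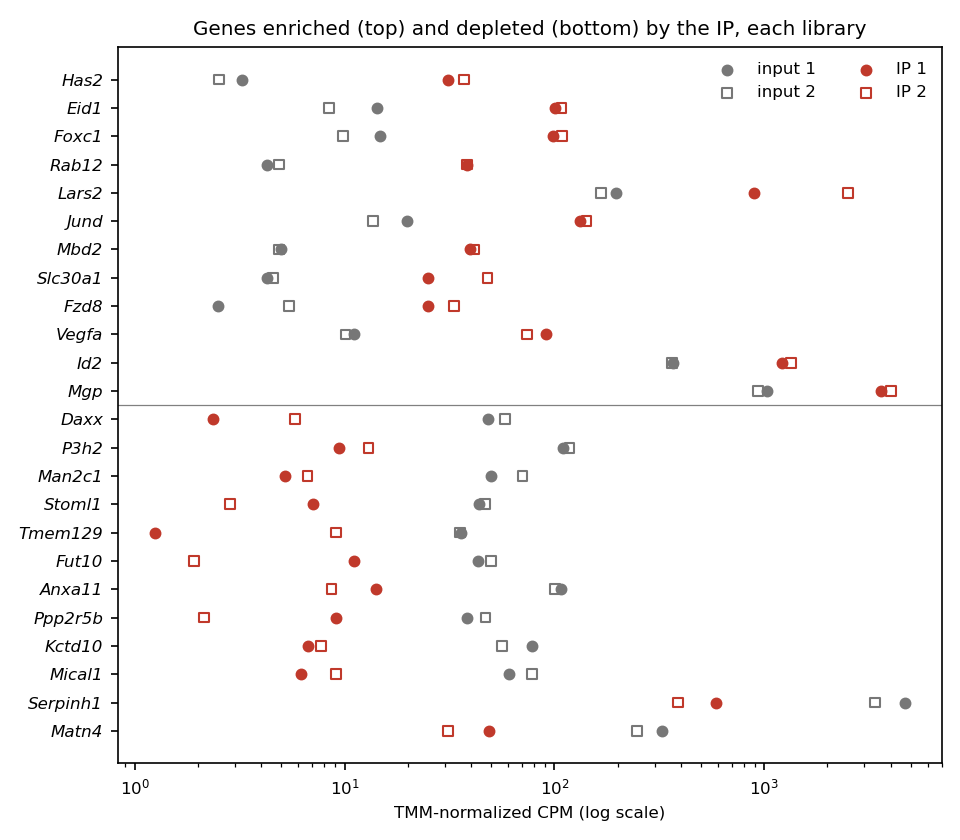
TMM-normalized CPM (x axis, log scale) of enriched genes (above the line) and depleted genes (below it) in each of the 4 libraries, with circles for pair 1, squares for pair 2, red for IP and grey for input. For every gene shown both IP libraries lie on the same side of both inputs, while Lars2, Tmem129, Fut10 and Ppp2r5b spread widely between their IP libraries.

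At the depleted end, the 15 genes with the lowest ratios had next to no IP counts, so their folds are bounds or rest on few reads. The IP count of these genes was at most 10 in a library, and 5 of the 15 had 0 in both. Mst1r, a receptor tyrosine kinase for macrophage stimulating protein, had 0 and 0 IP counts against 65 and 255 in the input, which is at least 55.2-fold lower in the IP (3 counts per library taken as the most a count of 0 allows). By the same bound Pcdhga8 was at least 51.9-fold, Pcdhb19 47.9-fold, Kcna1 (a potassium channel) 35.5-fold and Lamc3 (a laminin chain) 30.9-fold lower. Zfp648, a zinc-finger gene, had 0 and 4 IP counts against 344 and 512, the most input counts among the 15. The remaining genes were Pcdhgb7, Crtac1, Zfp870, Pcdhb5, Mzf1, Zscan12, Ngb, Rec8 and Cdk20. Clustered protocadherins, a family of related cell adhesion genes, supplied 4 of the 15. Of these, Pcdhga8 and Pcdhgb7 overlap on the genome, and the counting, which was the same for IP and input, may have split or dropped their reads. Zero counts were rare otherwise, since 23 of the 11737 well-measured genes had at most 3 counts in both IP libraries and 10 had none.

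With at least 1000 counts in each input, the lowest ratios were Daxx, P3h2, Man2c1, Stoml1, Tmem129, Fut10, Anxa11, Ppp2r5b, Kctd10, Mical1, Ddx54, Man2b2, Prss56, Taf8 and Coro1c, from −3.81 to −3.08. Daxx, a histone chaperone, had 2.37 and 5.81 CPM in the IP against 48.3 and 58.1 in the input, a log2 fold change of −3.81 ± 0.36 (SE, adjusted p = 0.00328, edgeR). P3h2, a prolyl 3-hydroxylase of collagens, had 9.40 and 13.0 CPM against 110 and 118 (−3.36 ± 0.20). Anxa11, an annexin, had 14.1 and 8.65 CPM against 108 and 101 (−3.24 ± 0.24). Tmem129 and Fut10 were less even, at 1.25 and 9.11 and at 11.1 and 1.92 CPM in the IP.

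Depletion was just as clear in some of the most abundant transcripts, where sampling noise is small. Serpinh1 (chromosome 7) had 16848 and 14379 IP counts against 140011 and 106224 in the input, a log2 fold change of −3.05 ± 0.08 (SE, adjusted p = 0.00139, edgeR). Col9a2, a chain of cartilage collagen IX, had 56165 and 62115 against 345338 and 346082 (−2.63 ± 0.07). Junb had 22082 and 26017 against 128557 and 162000 (−2.67 ± 0.12). In these genes the IP and input values were far apart in both pairs. Related genes ended at opposite ends: Has2 rose by 3.57 while Has1, a second hyaluronan synthase named here after its values were seen, had 92.8 and 71.5 CPM in the IP against 591 and 658 (−2.94 ± 0.17), and Jund rose by 3.05 while Junb fell.

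Genes with hardly any input counts were kept apart. Of 516 tested genes with at most 10 counts in each input, 60 were tagged and 0 depleted at the unadjusted p, and 6 were tagged at the adjusted p. The direction follows from the filter, because a gene with so few input counts enters the test only through its IP counts. The median log2 fold change of these 60 was 5.93 against 1.42 for the 1621 tagged genes with at least 50 counts in each input, yet their median IP level was 2.10 CPM against 45.9. Input counts were 0 in both libraries for 19 of the 60 and at most 3 for 35, and 40 had a clone name or number in place of a symbol. In 9 of the 60, and in 2 of the 1621, over 80% of the IP level came from 1 library. At a limit of 3 input counts 35 of 111 tested genes were tagged, and at a limit of 20, 87 of 1684.

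Mpo, myeloperoxidase of granulocytes, headed these genes with 10 and 864 IP counts and 0 in both inputs, at least 122-fold higher in the IP (floor of 3 counts per input library), but 98.5% of that level came from IP 2. Grk1, the rhodopsin kinase, had 32 and 109 IP counts (at least 20.8-fold), Mafa, a factor of pancreatic beta cells, 58 and 50 (17.3-fold), and Omg, a myelin glycoprotein, 36 and 68 (15.9-fold). Edn1, the vasoconstrictor endothelin 1, had 21 and 64 (12.6-fold) and Alk, a receptor kinase, 15 and 63 (11.4-fold). None of these 6 had an input count. Mpo passed at the adjusted p (0.00869, edgeR), and Grk1 (0.0632), Mafa (0.0747), Omg (0.0811), Edn1 (0.104) and Alk (0.118) passed only the unadjusted one. Ptprc and Mpo had input counts of 0, and both were higher in IP 2 (12 and 864 counts) than in IP 1 (0 and 10). Prtn3, another granulocyte protein, named here after its values were seen, had 53 and 110 IP counts against 1 and 1. Other blood cell genes went both ways between IP 1 and IP 2: S100a8 had 168 and 104 counts, Lyz2 351 and 204, and Coro1a 0 and 157. The sum over 14 blood cell genes was higher in IP 1 (49.9 CPM) than in IP 2 (37.5 CPM), scaled to library totals. The part of blood cell RNA in these values was not tested.

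The gene lists described next were compared with the background of 11.2% tagged and 14.3% depleted, which was 13.8% and 19.2% over the 11737 genes with at least 50 counts in each input. Mitochondrial transcripts stood highest. Of 13 tested mRNAs of the mitochondrial genome 10 were tagged and 0 depleted, with a median log2 ratio of 2.14 against −0.12 over all genes tested. mt-Co1, a subunit of cytochrome oxidase, had 2906 and 3676 CPM in the IP against 1013 and 1042, and mt-Cytb, of complex III, 3467 and 3639 against 1282 and 1134. Both mitochondrial rRNAs rose, mt-Rnr2 from 1126 and 1733 CPM in the inputs to 5113 and 7684 in the IP (2.17 ± 0.07). In all, genes of the mitochondrial genome took 1.56% and 1.99% of the IP counts and 0.427% and 0.481% of the input counts.

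Transcripts of cytosolic ribosomal proteins were enriched nearly as a block. Of 79 tested, 68 were tagged and 0 depleted (median 1.38), and the family took 3.54% and 3.53% of the IP counts against 1.47% and 1.29% of the input. Rps12 had 148 and 144 CPM in the IP against 35.8 and 33.3. Processed pseudogenes share sequence with these genes, so the split of reads among copies is uncertain. Of 75 nuclear genes of oxidative phosphorylation 45 were tagged and 3 depleted (median 1.12). Uqcrb, of complex III, had 194 and 198 CPM against 55.9 and 48.5 (1.91 ± 0.15), whereas the depleted members Sdha, Ndufv1 and Ndufs1, catalytic or iron-sulfur subunits with longer mRNAs, were at −1.40, −1.36 and −1.16. GGACT was missing from 34 of 79 ribosomal protein transcripts, of which 29 were tagged, and from 27 of 74 oxidative phosphorylation transcripts, of which 19 were tagged. Of 35 translation factors 8 were tagged and 1 depleted (median 0.53), with Tpt1 at 2.17 and Eif4a1, the helicase of the cap-binding complex, at −1.06.

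Of 57 genes of chromatin remodelling and acetylation 18 were tagged and 4 depleted (median 0.55). Kat6a, a histone acetyltransferase, had 30.7 and 33.8 CPM in the IP against 6.42 and 9.99 (2.0 ± 0.31), and Arid1a, of the BAF remodelling complex, 70.8 and 58.6 against 13.7 and 20.6 (1.94 ± 0.28). The acetyltransferases Kat5 (17.7 and 7.95 against 86.3 and 70.2, −2.71 ± 0.28) and Kat2a (−2.01) went the other way. Among 47 histone lysine methyltransferases and demethylases 16 were tagged, led by Setd1a at 2.2, and 7 depleted, among them Kdm4b at −2.14 and Kdm8 at −2.61 (median 0.34). Kdm8 had only 12 and 28 IP counts and passed only the unadjusted p (adjusted p = 0.121, edgeR). Of 37 genes of mRNA decay and silencing 12 were tagged and 2 depleted (median 0.47). Pan3, of the deadenylase that first shortens the tail, had 150 and 160 CPM against 35.5 and 33.2, and Cnot6, a catalytic deadenylase, 61.1 and 63.8 against 13.8 and 16.4, while Edc4, a decapping scaffold, was at −1.98.

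Of 33 forkhead and Kruppel-like factors 12 were tagged and 5 depleted (median 0.51). Foxc1 led the tagged and Klf15 (−2.55) and Klf10 (−1.82) the depleted. Of 34 core spliceosome genes 12 were tagged, with Lsm5 the highest at 1.67, and 4 depleted, with Prpf19 at −2.28 (median 0.40). Among 33 long noncoding RNAs 13 were tagged and 3 depleted (median 0.79). H19, the imprinted fetal RNA, had 3922 and 4457 CPM in the IP against 1095 and 1133 (1.91 ± 0.08), Malat1 was at 1.58, Snhg12 at 2.2 and Tug1 at −1.12. Xist, which silences an X chromosome in female cells, had 445 and 20.4 CPM in the IP and 116 and 5.61 in the input, so its ratio repeated although its level differed between the pairs. By annotated type, 11.8% of protein-coding genes were tagged and 16.6% depleted, and for 334 lincRNAs the shares were 10.2% and 1.5%.

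**Figure D3:**
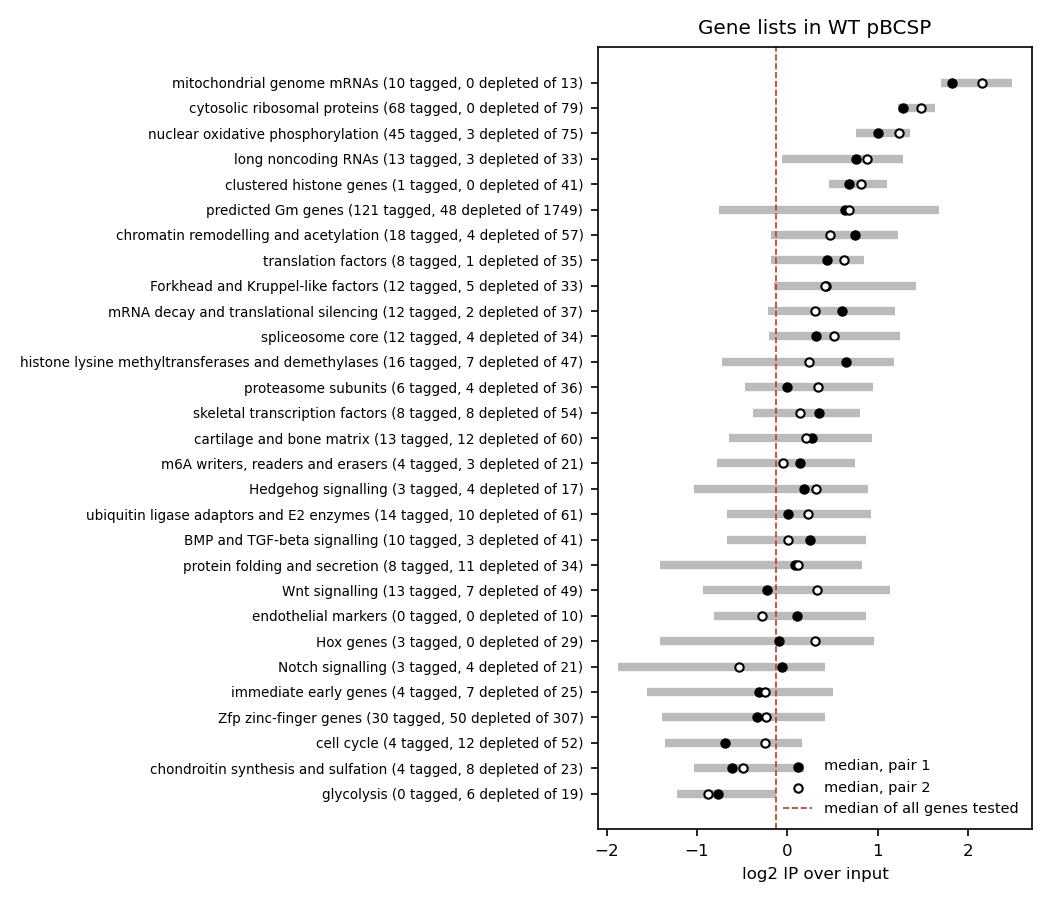
Log2 IP over input of each gene list in pBCSP. Dots are the list medians in pair 1 (filled) and pair 2 (open), grey bars span the quartiles of the fitted values, the dashed line is the median of all genes tested, and the lists run from mitochondrial mRNAs at the top to glycolysis at the bottom.

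Cartilage and bone matrix genes split almost evenly: of 60, 13 were tagged and 12 depleted (median 0.19), the depleted share of 20% being near that of all well-measured genes. Among the tagged were the large structural molecules Fn1 (fibronectin), with 1972 and 2143 CPM in the IP against 734 and 910 (1.33 ± 0.09), Acan (aggrecan), Vcan (versican, 1.67) and Fbn1 (fibrillin, 1.56), besides the small Mgp. Among the depleted were the cartilage proteins Matn4 (−2.87), Matn3 (−1.80), Comp (1357 and 989 CPM against 3914 and 2765, −1.51 ± 0.07) and Col9a2, and the bone collagen Col1a1 (5613 and 4993 against 11200 and 11420, −1.10 ± 0.07). Bglap, osteocalcin, had 7.66 and 4.19 CPM against 1.80 and 0.825 and passed only the unadjusted p (2.21, adjusted p = 0.0827). Col2a1, the main cartilage collagen, had 56460 and 52170 CPM against 72430 and 77930 and fell by 0.47 on the log2 scale, below the size required for a call.

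Among the 34 genes of protein folding and secretion, 8 were tagged and 11 depleted (median 0.10). The tagged were mostly small subunits, such as Spcs1 of the signal peptidase (599 and 638 CPM against 221 and 206, 1.53 ± 0.11) and Krtcap2 of the oligosaccharyltransferase (1.53). The depleted were chaperones and larger subunits: besides Serpinh1, Pdia4 (−2.05), Rpn1 (−1.74) and Hspa5 (1217 and 895 against 3541 and 2738, −1.58 ± 0.08). Of 23 genes of chondroitin synthesis and sulfation 4 were tagged and 8 depleted (median −0.64). The enzymes that start the chain diverged, Xylt1 with 256 and 199 CPM against 65.3 and 47.8 (2.02 ± 0.13) and Xylt2 with 4.84 and 5.79 against 30.6 and 43.6 (−2.79 ± 0.29). Chpf2, a chain-extending factor, was at −2.24.

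Glycolysis and the cell cycle had negative medians. Of 19 glycolytic genes 0 were tagged and 6 depleted (31.6%, against 19.2% of well-measured genes), with a median of −0.82. Of the 14 from 1500 to under 4500 bases 5 were depleted, near the 28.2% of all genes of that length. The depleted members included Pfkl (50.4 and 34.4 CPM against 349 and 204, −2.68 ± 0.14), the liver-type phosphofructokinase, Pkm (pyruvate kinase, 327 and 250 against 1241 and 855, −1.85 ± 0.10) and Hk1 (−1.59). Hk2, the inducible hexokinase, had the highest ratio of the list, 0.86, without reaching a call. Of 52 cell cycle genes 4 were tagged and 12 depleted (23.1%, near the 19.2% of well-measured genes). Their median was −0.63, and it was −0.25 without pair 1 and −0.71 without pair 2. Cdk6, the kinase of early G1, had 384 and 228 CPM against 115 and 58.6 (1.85 ± 0.13), while the replication genes Mcm6 and Cdt1 were at −1.94 and −1.77. Of 25 immediate early genes 4 were tagged and 7 depleted (median −0.30), with Ier5 at 2.30 on the tagged side, and Socs3 (−2.48), Ier2 (−2.10) and Jun (−1.85) on the side of Junb.

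Signalling pathways of the growth plate were divided. In BMP and TGF-beta signalling, 10 of 41 genes were tagged and 3 depleted (median 0.12): the shared mediator Smad4 had 72.9 and 94.6 CPM in the IP against 18.0 and 18.3 (2.19 ± 0.20), the receptor Bmpr1a was at 1.62 and the ligand Bmp6 at 2.01, while the ligands Tgfb3 (−2.03) and Gdf5 (−1.98) were depleted. In Wnt signalling, 13 of 49 were tagged and 7 depleted (median 0.03), with Fzd8 and Lgr4 the highest of the tagged and the ligand Wnt7b (−2.29) and receptor Fzd9 (−2.05) the lowest of the depleted. In Hedgehog signalling, 3 of 17 were tagged, including Gli3 (1.53) and the receptor Ptch1 (1.14), and 4 depleted, including the ligand Ihh (7.14 and 3.19 CPM against 33.5 and 41.8, −2.96 ± 0.46; median 0.17). In Notch signalling, 3 of 21 were tagged, with the ligand Jag1 at 2.13, and 4 depleted, with the glycosyltransferase Lfng at −5.69 (median −0.30). The value of Lfng rests on few reads, 15 and 0 IP counts against 346 and 117 in the input. Of 54 skeletal transcription factors 8 were tagged and 8 depleted (median 0.21). Twist1 was highest at 2.23, and Sox9, the master factor of cartilage, had 2534 and 2109 CPM against 5979 and 6806 (−1.46 ± 0.12), with Sox8 at −1.84.

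The m6A machinery itself was mixed, with 4 of 21 genes tagged and 3 depleted, shares of 19% and 14.3% that lie near the background. Its median of 0.18 was −0.048 without pair 1. The writer adapters Rbm15b (2.02), Rbm15 (1.47) and Wtap (212 and 246 CPM against 89.9 and 69.2, 1.53 ± 0.19) and the reader Ythdf1 (1.74) rose, and the reader Igf2bp1 (−3.28), the reader Ythdf3 (31.8 and 43.0 against 91.2 and 141, −1.62 ± 0.16) and the eraser Fto (−1.39) fell. Of 61 ubiquitin ligase adaptors and E2 enzymes 14 were tagged, with Ube2q1 at 2.28, and 10 depleted, with Ube2g2 at −2.09 (median 0.13). Of 36 proteasome subunits 6 were tagged and 4 depleted (median 0.28), with Psmb2 at 1.29 and Psmd3 at −1.83. Of 29 Hox genes 3 were tagged and 0 depleted (median −0.17), and of 307 Zfp zinc-finger genes 30 and 50 (median −0.42). Of 41 clustered histone genes 1 was tagged and 0 depleted (median 0.78), of 9 olfactory receptors 0 and 0 (median 0.42), and of 1749 predicted genes with Gm numbers 121 and 48 (median 0.62). Many of these genes had few input counts, and such a gene can enter the test through its IP counts. Among members with at least 50 counts in each input, the medians were 0.57 (15 histone genes) and 0.05 (316 Gm genes). No olfactory receptor had such an input. In the marker lists of other cells, 1 of 8 tested blood genes was tagged and 0 depleted (median 1.15), 1 and 1 of 6 red cell genes (median 1.64), 0 and 0 of 10 endothelial genes (median −0.16) and 1 and 1 of 7 muscle genes (median 0.89). With at least 50 counts in each input, these medians were 0.39 (3 blood genes), −0.38 (3 endothelial genes) and 0.89 (5 muscle genes). No red cell gene had such an input. Of 5 sort markers tested, Itgav was tagged (1.16) and Eng depleted (−1.17).

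The ratio varied with the length of the transcript, high for the shortest and the longest and low between. The 10834 well-measured protein-coding genes were ordered by the length of their annotated transcript and cut into 10 bins of equal size. In the shortest bin, 303 to 1261 bases, 36.9% of genes were tagged and 2.03% depleted, with a median log2 ratio of 0.82. In the fifth bin, 2583 to 3019 bases, 5.36% were tagged and 34.7% depleted, with a median of −0.82. In the longest bin, 6536 bases and over, 28.8% were tagged and 4.70% depleted, with a median of 0.60. Both pairs gave this curve, at 0.74 and 0.88 in the shortest bin, −0.76 and −0.77 in the fourth and 0.65 and 0.54 in the longest. A rank correlation misses a curve that turns, and was 0.028 (Spearman) over these genes. With the genes of ribosomal proteins and oxidative phosphorylation left out, 308 of 970 genes (31.8%) of the shortest bin were tagged, with a median of 0.72. This pattern was noticed in these data, and the bins are a description with no test.

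**Figure D4:**
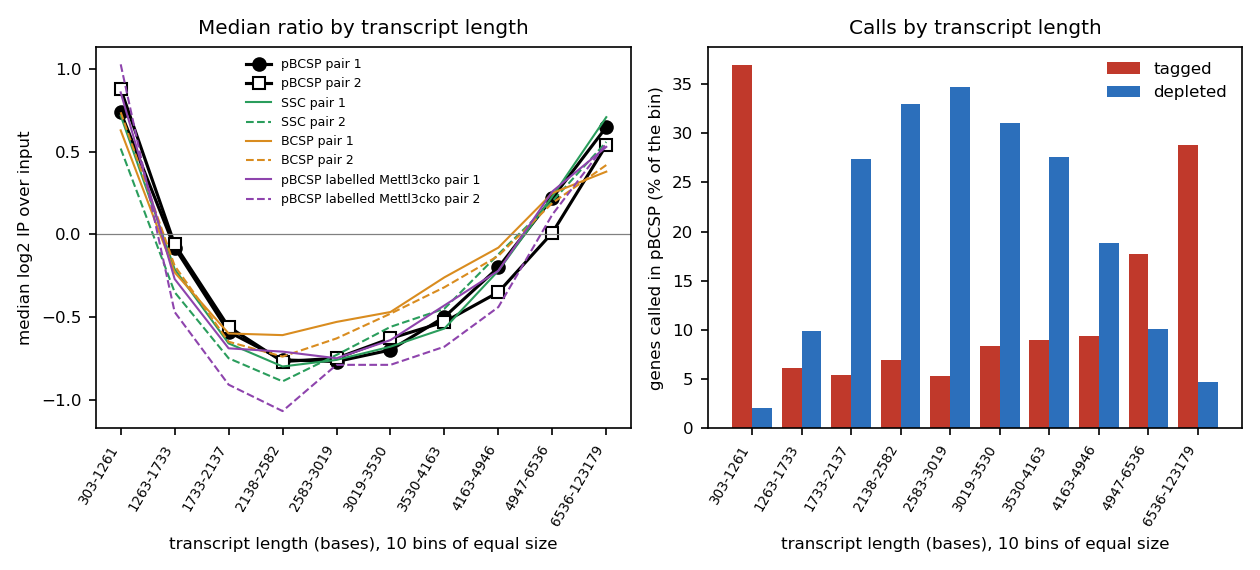
Left, the median log2 IP over input in 10 bins of transcript length for each pair of pBCSP (black) and of SSC, BCSP and the pBCSP labelled Mettl3cko (colours). Right, the share of pBCSP genes tagged (red) and depleted (blue) per bin, with tagged shares of 36.9% and 28.8% at the short and long ends and the depleted share highest, 34.7%, in the fifth bin.

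Within gene lists the calls divided by length as well. Over all well-measured protein-coding genes, 438 of 1612 under 1500 bases were tagged (27.2%) and 62 depleted (3.85%), 456 of 6504 from 1500 to under 4500 bases were tagged (7.01%) and 1834 depleted (28.2%), and 559 of 2718 above were tagged (20.6%) and 261 depleted (9.6%). Of the chromatin remodelling genes, 18 of 46 with transcripts of at least 4500 bases were tagged and 0 depleted (median 0.82), and of 9 from 1500 to under 4500 bases 0 were tagged and 4 depleted (median −0.96). In protein folding and secretion, 7 of 13 genes under 1500 bases were tagged and 0 depleted (median 1.13), against 1 tagged and 11 depleted of 21 of intermediate length (median −1.04). Matrix genes gave 2 tagged and 0 depleted of 5 under 1500 bases, 1 and 9 of 27 of intermediate length and 9 and 3 of 24 above. mRNA decay genes gave 10 tagged and 1 depleted of 21 long members (median 1.03) and 2 and 1 of 15 intermediate ones (median −0.25). Of 36 cell cycle genes of intermediate length 0 were tagged and 11 depleted, and of 14 such glycolytic genes 0 and 5, depleted shares near the 28.2% of all genes of that length. How far length accounts for any list's calls was not tested.

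**Figure D5:**
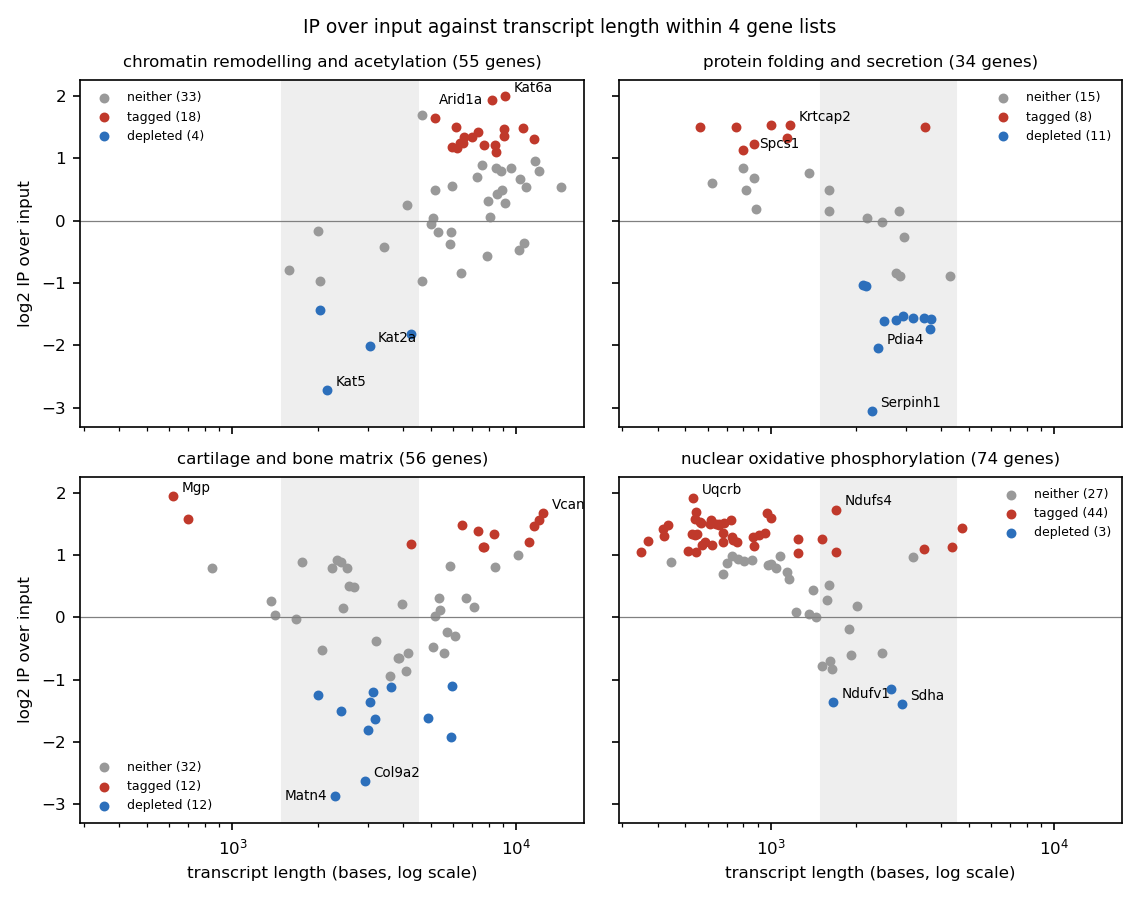
Log2 IP over input (y axis) against transcript length in bases (x axis, log scale) for the well-measured protein-coding members of 4 gene lists in pBCSP, with tagged genes in red and depleted in blue. The grey band spans 1500 to under 4500 bases, where most depleted members lie, and tagged members lie mainly to its left in folding and oxidative phosphorylation and to its right in chromatin genes.

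Base composition moved with the ratio too. In the tenth of transcripts with the least GC, 33.35% to 42.32%, 17.7% were tagged and 6.64% depleted (median 0.15), and in the tenth with the most, 58.29% to 74.2%, 11.0% and 32.8% (median −0.71). The Spearman correlation of the ratio with GC across these genes was −0.218. Within intermediate lengths, depletion was found in 14.3% of the third of genes lowest in GC and in 41.0% of the highest. Under 1500 bases, the tagged share was 39.6% at low and 19.6% at high GC, and at 4500 bases and over it was 24.0% and 14.4%. Median exon numbers were 7 in tagged, 9 in uncalled and 11 in depleted genes, but here too the curve turned. In the tenth of genes with 11 to 14 exons, 7.38% were tagged and 27.6% depleted. With 23 to 146 exons the shares were 18.6% and 12.7%.

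The neighbouring populations served to ask what was particular to pBCSP. Fitted in the same way, 1432 of 15780 tested genes were tagged in SSC and 1016 of 16040 in BCSP. Genes tested both there and in pBCSP numbered 15056 for SSC and 15090 for BCSP. A tagged gene that was not shared need not differ, since it may have missed a threshold or gone untested there. Of the pBCSP tagged genes, SSC shared 1052, which is 57.5% of the pBCSP and 73.5% of the SSC genes, and BCSP shared 795 (43.5% and 78.2%). A gene tagged in one and depleted in the other occurred 0 times for SSC and 1 time for BCSP. The length curve was similar in both, with shortest-bin medians of 0.72 and 0.52 in SSC and 0.63 and 0.74 in BCSP. Foxc1 had log2 ratios of 2.74 and 3.47 in pBCSP, 3.05 and 2.86 in SSC and 1.52 and 2.43 in BCSP. Ribosomal protein genes had medians of 1.28 and 1.49, 1.48 and 1.01, and 1.12 and 1.51 in the same order.

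In a test of the difference, the interaction of IP with population in edgeR, 249 of 18991 genes (1.31%) had a higher ratio in pBCSP than in the mean of SSC and BCSP and 281 (1.48%) a lower one at an unadjusted p under 0.05. Together these are 530 genes (2.79%), and by DESeq2 the share was 4.99%. Neither exceeds the share of 0.05 that this p threshold passes where no gene differs. The genes named below passed only the unadjusted p in edgeR. No gene passed at an adjusted p in edgeR, and 6 higher and 7 lower passed in DESeq2. Both counts fell with either pBCSP pair left out, which also leaves fewer libraries to test, but the lower count fell only slightly without pair 1. Among genes that passed the unadjusted p and had at least 50 counts in each input of the 3 populations, Tmem204 was highest (7.05 ± 1.73, unadjusted p = 0.00175, adjusted p = 1), with IP counts of 231 and 137 in pBCSP against 8 and 0 in SSC and 2 and 0 in BCSP, while its input counts overlapped. Dpysl4 (6.24) and Ncald (6.04) followed. Of the same genes Tlr4, the endotoxin receptor, was lowest (−5.17 ± 1.30, unadjusted p = 0.00212, adjusted p = 1), with IP counts of 4 and 8 in pBCSP, 184 and 93 in SSC and 182 and 164 in BCSP, and then Top3a (−4.74) and Wisp2 (−4.32). Tmem204, Dpysl4 and Ncald were not enriched by the IP in both pBCSP pairs. Their log2 ratios there were 1.19 and −0.69, −2.21 and −0.71, and −0.10 and 0.97. IP counts of Dpysl4 were 0 and 0 in SSC and 1 and 22 in BCSP. Those of Ncald were 0 and 0 in SSC and 134 and 20 in BCSP.

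The pBCSP libraries labelled Mettl3cko were read beside the WT libraries, with a reservation about the labels. Their genotype field reads wild type, so the deletion rests on titles in these data (the study describes its own tests of the deletion, which were not analysed here), and Mettl3 in their inputs was 21.5 and 24.0 CPM against 11.9 and 16.3 in WT inputs, scaled to library totals. Counts over a whole gene cannot show the loss of an exon. In the IP, Mettl3 was 5.44 and 1.02 CPM against 19 and 18.9. By the same fit, 932 of 14494 tested genes were tagged in the libraries labelled Mettl3cko. Of these, 663 were among the WT tagged genes (71.1%, or 36.2% of the WT list). The WT ratio was higher by more than 1 on the log2 scale at an unadjusted p under 0.05 for 1035 of 17490 genes and lower for 241, with 0 at an adjusted p (smallest 0.586, edgeR). The IP libraries labelled Mettl3cko held fewer genes with at least 50 counts, 10701 and 9956 against 12361 and 12993 in the WT IP. Their median log2 ratios over all genes were −0.12 and −0.54 against −0.02 and −0.06. The part of these differences in the counts was not tested. In these libraries ribosomal protein genes had median ratios of 2.09 and 2.60 against 1.28 and 1.49 in WT, the shortest bin 0.86 and 1.03 against 0.74 and 0.88, and Foxc1 ratios of 2.53 and 3.46 against 2.74 and 3.47.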

How the data were processed

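Counts per gene were taken from the table the authors deposited, which holds whole-number read counts without normalization. According to the methods and the submitters' processing notes, the authors trimmed reads with fastp 0.20.1, aligned them to GRCm38 with HISAT2 2.2.1 and counted them with featureCounts 2.0.1. Strand-specific counting is not given in the sources used here, so overlapping genes cannot be separated. Of 46959 entries, 128 with date-like names (at most 0.390% of a library) were left out, and 44681 of 46831 genes matched 1 symbol in GENCODE vM21, whose transcript with the longest coding sequence gave length, GC and motif counts.

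Tests used R 4.3.3 with edgeR 4.0.16 (TMM, filterByExpr, quasi-likelihood F test, replicate number as block), and each SE was derived from the fold change and its F value. CPM were TMM-scaled, with a prior count of 2 on the log2 scale. The block follows from the study's statement that cells of one sorting batch were divided between IP and RNA-seq, and deviations of same-numbered libraries correlated at 0.167. The scripts were tested on simulated counts. The total counts per library, 28038160 to 35856651, set the precision, and floors of 3 counts cover counting error only, since amplified reads are not separate molecules.

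Named genes were the 15 highest and 15 lowest log2 fold changes with at least 50 counts in each input, an adjusted p under 0.05 and 1 direction in both pairs (numbered genes and pseudogenes counted but not named), the 6 highest with at most 10 input counts, the extremes of each list, genes the study names, and the 3 highest and lowest interactions past the unadjusted p with at least 50 counts in each input. Members and gene lists were chosen with earlier results of these data known. Alternatives were no block, DESeq2 1.42.0, other scalings and filters, a pooled spread and each pair left out. Some items are not reported here.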

Additional observations from a re-analysis of the deposited data

How the results depend on the processing

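Over the alternatives run, the count of tagged genes lay between 1080 and 2044. Left out one pair at a time, tagged genes numbered 1080 to 1229 and depleted genes 1401 to 1628, and at an adjusted p 275 to 463 and 344 to 575. These fits take the spread from SSC and BCSP and assume that pBCSP libraries vary like them. With both pairs kept and the spread pooled over the WT libraries, 1549 genes were tagged and 2030 depleted. With no replicate block, pairing aside, 1957 genes were tagged and 2425 depleted (1252 and 1549 at an adjusted p), each within 1.5 times the paired count. Testing only genes with at least 50 counts in each input moved the median of all ratios by 0.16 and gave 2013 tagged and 1890 depleted genes (51.6% of calls tagged against 43.8%). It moved list medians to 1.54 for ribosomal proteins, 0.32 for matrix, −0.48 for chondroitin and −0.66 for glycolysis, and library size alone moved matrix to 0.27. With a pair left out, the medians spanned 1.81 to 2.16 (mitochondrial mRNAs), 0.20 to 0.26 (matrix), −0.63 to −0.50 (chondroitin) and −0.71 to −0.25 (cell cycle). List medians changed sign without pair 1 for the m6A machinery (−0.048, against 0.13 without pair 2) and Hox genes (0.33), and without pair 2 for the proteasome (−0.011, against 0.34 without pair 1), ubiquitin adaptors (−0.009), Wnt (−0.241), endothelial markers (0.095) and olfactory receptors (−0.526). They also did so without a filter for muscle markers (−0.060), Gm genes (−0.043), Wnt (−0.021) and olfactory receptors (−2.03), without the block for Hox (0.312), endothelial (0.22) and Wnt genes (−0.036), and with at least 50 input counts for Hox genes (0.19). Of the other results for single genes, 1174 values kept their side of an adjusted p of 0.05, 112 no longer passed it and 31 newly passed it. No size of fold was required here. A value that changed sign was counted as kept where neither fit passed. Limiting input to 3 counts left 35 tagged genes. For the interaction, higher and lower genes numbered 419 and 320 without the block, 486 and 462 by DESeq2 and 374 and 171 with library size alone, and 60 to 102 and 141 to 267 with a pBCSP pair left out. The cause of these shifts was not tested. Depth limits genes with few input or IP counts, whose folds are bounds.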
